A study of Sus scrofa with 48 samples.

Results

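Uncoupling proteins, the regulators of mitochondrial biogenesis and the genes around them were followed in pig subcutaneous adipose tissue (SCAT). A set of 10 genes was searched for by symbol among the probes of the array, and a probe was kept when any of the groups had 9 or more of its 12 arrays well above background. Kept probes were found for 7 of the 10 genes, namely UCP2, UCP3, PPARGC1A, TFAM, ESRRA, DIO2 and SLC25A4, and they numbered 17 of the 44356 kept probes. No probe bearing the symbols PPARGC1B, NRF1 or PRDM16 was found in the files used here, nor one for UCP1, so that these genes were not analysed here. All 17 probes of the 7 genes passed the filter.

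The samples came from 48 growing Large White barrows of 2 lines bred in opposite directions for residual feed intake (RFI), which is feed eaten beyond what growth and maintenance require, so that low-RFI pigs are the efficient ones. Pigs of each line had free access to either a diet rich in lipids and insoluble fibers (HF, with rapeseed and soybean oils and wheat straw) or a diet rich in starch and poor in lipids and fibers (LF). Crossing diet and line gave 4 groups of 12 pigs, and the labels give an age of 132 days for all of them. Dorsal SCAT of each pig was hybridized to 1 array with a single dye (Cy3). The lines are 2 selected populations, so that a difference between them cannot be told apart from other differences between these populations.

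Mitochondria make heat instead of ATP when protons flow back across their inner membrane without passing through ATP synthase. In brown and beige fat of most mammals this leak is carried by UCP1, and pigs lack a working UCP1 gene. What remains are the related carriers UCP2 and UCP3, the ADP/ATP carriers such as SLC25A4, which also let protons through when fatty acids are present, and futile cycles that spend ATP. The number of mitochondria is set largely by PPARGC1A (PGC-1 alpha), a coactivator that works through ESRRA and other nuclear factors to raise TFAM, the factor that packs and transcribes mitochondrial DNA. DIO2 turns the thyroid prohormone T4 into active T3 inside the cell, a step known to stimulate heat production.

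Values are the log2 of the background-subtracted signal of a probe minus the median of all kept probes on the same array. They compare pigs for 1 probe, and levels of different probes are not comparable, because probes differ in how well they bind. Brightness served only to pick 1 probe per gene where a single one was needed. Calling a probe required, in limma, more than a 1.1-fold change, a raw p below 0.01, and a p below 0.08 after Benjamini-Hochberg adjustment over all kept probes. Adjusted p-values below are of this test, which was two-sided. The share of probes well above background lay between 62.18% and 81.87% per array, and 2 arrays correlated between 0.9735 and 0.9943 over all probes. The arrays lay on 6 slides of 8 arrays, each with 2 arrays of each group, and 3 slides had been scanned on each of 2 dates.

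Levels of marker genes are given as a description, and they do not test the tissue label, because levels of different probes are not comparable. All 12 adipocyte markers had a kept probe. Their summed level ranged from 11.53 to 11.93 in HF and from 11.56 to 11.97 in LF pigs. Of 24 skeletal muscle markers 21 had a kept probe, with MB, MYH4 and TTN at no kept probe, and the summed level ranged from 6.05 to 7.03 in HF and from 6.01 to 7.43 in LF pigs.

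The probes on which the results turned are shown first, because several genes were read by probes that did not behave alike. All are 60 bases long and are given 5′ to 3′. Whole sequences are given for the probes that read coding sequence, where capitals mark the start codon (ATG) or the stop codon (TAA) of the reading frame, and a stretch of 30 bases is given for the others, where capitals mark AATAAA, the hexamer known as the signal for polyadenylation.
UCP3 A_72_P443167: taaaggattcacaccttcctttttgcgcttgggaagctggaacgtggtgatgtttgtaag
UCP3 A_72_P146406, bases 1 to 30: atttggggaaaaggattatgactcAATAAA
UCP3 O7852: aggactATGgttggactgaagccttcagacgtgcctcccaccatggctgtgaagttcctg
PPARGC1A A_72_P297579, bases 17 to 46: acatcagcctcactgagctAATAAAgggaa
PPARGC1A O9324, bases 1 to 30: ttccatgaagacacacgtaaaacctagaac
PPARGC1A A_72_P077836, bases 1 to 30: aagcacatgtttattcatgggtgtcagctt
SLC25A4 A_72_P113671: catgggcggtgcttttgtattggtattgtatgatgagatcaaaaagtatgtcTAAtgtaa
SLC25A4 O9208, bases 1 to 30: ctaggggaagtcaaaggaaagatctgggat
DIO2 O5493 and A_72_P165621: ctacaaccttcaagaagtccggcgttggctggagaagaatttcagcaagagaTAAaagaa

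The 2 UCP3 probes A_72_P443167 and A_72_P146406 were listed at bases 1062 and 2182 of the same pig transcript, and O7852 was named from a human transcript and holds the start codon at its base 7. The longest run of bases that any pair of the 3 UCP3 probes shared was 8. Whether the 60 bases of O7852 match the pig transcript was not checked here, so that its values may not report on pig UCP3. The hexamer AATAAA lay at base 25 of A_72_P146406 and at base 36 of PPARGC1A A_72_P297579. It was found in 10.26% of the 60305 probes of the array, and its reverse complement in 4.32%. The 2 DIO2 probes hold the same 60 bases under different names, so that they are 2 spots of 1 probe. Among the other genes, the 2 UCP2 probes shared 22 bases and the TFAM probes A_72_P149791 and A_72_P640550 shared 40. No UCP2 probe shared more than 8 bases in a row with a UCP3 probe, although the genes are neighbours on 1 chromosome and close relatives.

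By diet 2 of the 7 genes were called, against 12.7% of all 11096 genes, each read by its brightest probe. Transcripts of UCP3 were up-regulated in pigs fed the HF diet at 2 of 3 probes, by 22.1% and 29%. SLC25A4 was down-regulated at both of its probes, by -17.1% and -15.1%. UCP2, TFAM, ESRRA and DIO2 had no called probe. PPARGC1A had its only call at a dim probe, A_72_P297579, which passed the filter through the HF groups alone and is therefore described apart and not counted as a changed gene. The fit called 5 of the 17 probes (29.4%) by diet, against 13.1% of all kept probes. These 5 probes read 3 of the 7 genes. Without the dim probe 4 of 16 were called (25%), 2 higher and 2 lower in HF pigs, and the median difference of the 16 was -0.019 on the log2 scale, against -0.020 over all kept probes. In bulk tissue, fewer cells of a type and less RNA per cell cannot be told apart.

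**Figure D1:**
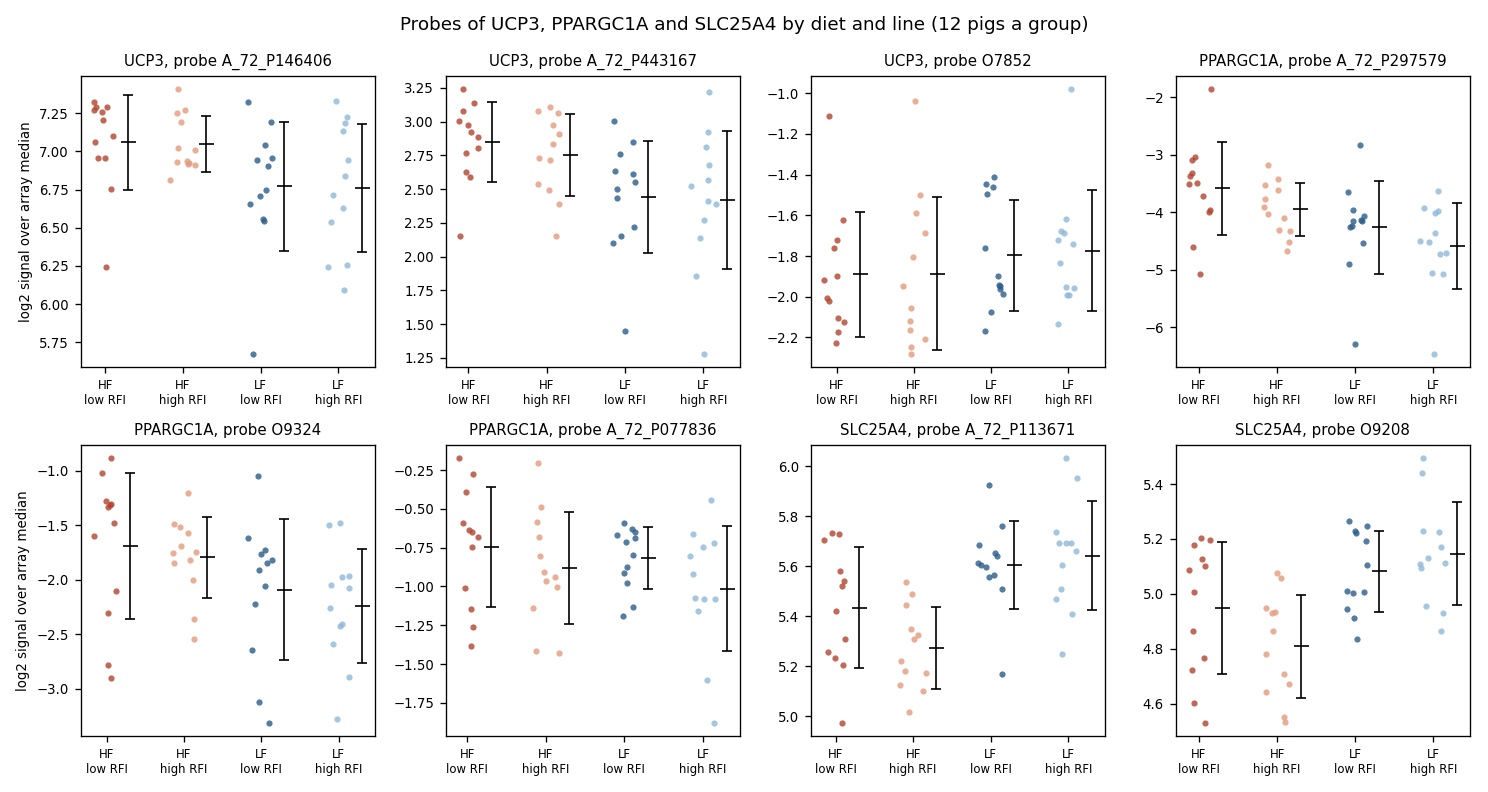
Level of each probe of UCP3, PPARGC1A and SLC25A4 (vertical axes, log2 signal over the array median) in the 4 groups of 12 pigs; points are pigs, and bars give the mean and SD of a group. SLC25A4 lies lower in the HF groups at both probes, the UCP3 probes A_72_P146406 and A_72_P443167 lie higher there, and all diet groups overlap.

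UCP3 encodes an inner-membrane carrier best known from muscle, where its transcript rises when fatty acids are plentiful. At probe A_72_P146406, HF low RFI pigs ranged from 6.25 to 7.32 with a median of 7.15, and HF high RFI pigs from 6.81 to 7.41 with a median of 6.98. LF low RFI pigs ranged from 5.67 to 7.32 (median 6.83) and LF high RFI pigs from 6.09 to 7.33 (median 6.78). The top of the range was alike in the 4 groups, and the lowest values were those of LF pigs: 22 of 24 HF pigs lay above the LF mean and 6 of 24 LF pigs above the HF mean. The mean was 7.05 ± 0.25 (SD, n = 24) in HF and 6.77 ± 0.41 (SD, n = 24) in LF pigs, a log2 difference of 0.288 (SE 0.097, adjusted p = 0.0457). The diet difference was 0.29 within each line.

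At probe A_72_P443167, HF low RFI pigs ranged from 2.15 to 3.24 (median 2.90) and HF high RFI pigs from 2.15 to 3.11 (median 2.79). LF low RFI pigs ranged from 1.45 to 3.002 (median 2.53) and LF high RFI pigs from 1.28 to 3.22 (median 2.47). The groups overlapped, with 21 of 24 HF pigs above the LF mean and 5 of 24 LF pigs above the HF mean. The log2 difference by diet was 0.368 (SE 0.109, adjusted p = 0.0222), with 0.41 in the low-RFI line and 0.33 in the other. Over the 48 arrays, after group means were taken out, both probes varied together (Pearson r = 0.838, Spearman rho = 0.793, r = 0.786 without the 2 farthest arrays and 0.81 with slide means also taken out).

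The remaining UCP3 probe, O7852 at the start codon, behaved otherwise. Its background-subtracted signal lay between 69.2 and 181 brightness units and was well above background on all 48 arrays. HF pigs ranged from -2.28 to -1.04 (median -1.98) and LF pigs from -2.17 to -0.98 (median -1.87), and the log2 difference by diet was -0.104 (SE 0.091, adjusted p = 0.509). It did not follow the other probes (r = -0.166 and -0.212). Slides accounted for 46.4% of its variance, against 14.3% and 20.7% at the other UCP3 probes.

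At the bright UCP3 probes the sign of the difference was the same in both scans, and at O7852 it was not (-0.238 and 0.031, adjusted p = 0.17 and 0.928). Within the first scan date the log2 difference by diet was 0.354 at A_72_P146406 (adjusted p = 0.0529) and 0.394 at A_72_P443167 (adjusted p = 0.0804), and within the second it was 0.222 and 0.342 (adjusted p = 0.526 and 0.339, with 24 arrays in each fit). HF pigs had the higher mean on 5 of 6 slides at both probes. With array position as a block, the call at A_72_P146406 was lost (0.274, adjusted p = 0.113), and that at A_72_P443167 was not (adjusted p = 0.0379). Without a filter on dim probes the call at A_72_P146406 was also lost (adjusted p = 0.0853). Over the 14 settings its difference stayed between 0.274 and 0.329. UCP3 is abundant in muscle. The median diet difference of the 21 muscle markers was -0.136, with 19 of the 21 below 0, 1 called (PYGM, muscle glycogen phosphorylase, -0.44) and 3 at an unadjusted p under 0.05. Within groups the summed muscle level went with A_72_P146406 and A_72_P443167 at r = 0.112 and -0.06 (rho = -0.014 and -0.252), and the summed endothelial level at r = 0.478 and 0.304 (rho = 0.55 and 0.267), as a description. The part of tissue makeup in the UCP3 difference was not tested.

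UCP2, a carrier expressed in many tissues including immune cells and fat, was called in no comparison. At probe A_72_P165336 HF pigs ranged from 1.92 to 2.89 (median 2.36) and LF pigs from 1.85 to 3.02 (median 2.30), and the log2 difference by diet was 0.062 (SE 0.09, adjusted p = 0.713), with a 95% interval of -0.12 to 0.24. The overlapping probe O6507 gave 0.019 (SE 0.116, adjusted p = 0.941), and a further spot with the same 60 bases as A_72_P165336, which the array names by a number only, gave 0.082 (SE 0.092, adjusted p = 0.624). The 3 spots ranked the pigs alike (r = 0.933 between the 2 probes with group means taken out, and 0.984 between the copies). By line the differences were 0.000 and 0.095 (SE 0.09 and 0.116, adjusted p = 1.0 and 0.896).

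SLC25A4 encodes the ADP/ATP carrier ANT1, which exchanges ATP made in mitochondria for cytosolic ADP. At probe A_72_P113671, over the end of the coding sequence, HF low RFI pigs ranged from 4.97 to 5.73 (median 5.47) and HF high RFI pigs from 5.02 to 5.54 (median 5.26). LF low RFI pigs ranged from 5.17 to 5.93 (median 5.61) and LF high RFI pigs from 5.25 to 6.03 (median 5.68). HF high RFI pigs were the lowest group, and 22 of 24 LF pigs lay above the HF mean against 3 of 24 HF pigs above the LF mean. The mean was 5.35 ± 0.22 (SD, n = 24) in HF and 5.62 ± 0.20 (SD, n = 24) in LF pigs, a log2 difference of -0.271 (SE 0.058, adjusted p = 0.00153).

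At the second SLC25A4 probe, O9208, HF low RFI pigs ranged from 4.53 to 5.20 (median 5.05) and HF high RFI pigs from 4.53 to 5.08 (median 4.82). LF low RFI pigs ranged from 4.83 to 5.27 (median 5.06) and LF high RFI pigs from 4.87 to 5.49 (median 5.12). The medians of the low-RFI groups lay close to each other, and those of the high-RFI groups did not. The log2 difference by diet was -0.236 (SE 0.056, adjusted p = 0.0042). This probe shares no more than 5 bases in a row with A_72_P113671, and both varied together (r = 0.797, rho = 0.792, r = 0.778 without the 2 farthest arrays).

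SLC25A4 was lower in HF pigs on 6 of 6 slides at both probes. The log2 difference was -0.279 and -0.263 within the first and second scan dates at A_72_P113671 (adjusted p = 0.0333 and 0.123), and -0.217 and -0.254 at O9208 (adjusted p = 0.102 and 0.11). Both calls were kept under all 14 alternative settings tried, with log2 differences from -0.31 to -0.21 and from -0.27 to -0.18. Muscle also holds much SLC25A4. The mean summed muscle level in the low-RFI line was 6.376 under HF and 6.401 under LF, and in the other line 6.296 and 6.451. The mean summed adipocyte level was 11.759 and 11.823 in the low-RFI line and 11.705 and 11.748 in the other, for HF and LF in turn. Within groups the muscle level went with A_72_P113671 at r = -0.463 (rho = -0.476) and with O9208 at r = -0.236 (rho = -0.24), and the adipocyte level at r = 0.395 and 0.41 (rho = 0.356 and 0.381), as a description. The part of tissue makeup in the diet difference was not tested.

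Taken within 1 line, the fall of SLC25A4 passed the cut-offs in high-RFI pigs, by -0.369 at A_72_P113671 (SE 0.082, adjusted p = 0.0193) and by -0.338 at O9208 (SE 0.08, adjusted p = 0.0266). With array position as a block the call at O9208 was lost (-0.322, adjusted p = 0.112). These were the only 2 of the 17 probes called by diet within high RFI (11.8%, against 1.66% of all kept probes). Both read SLC25A4, so that this share rests on 1 of the 7 genes. In low-RFI pigs the differences were -0.172 and -0.133 (adjusted p = 0.305 and 0.451), and 0 of 17 probes were called there by limma, against 3.04% of all kept probes. At an unadjusted p under 0.05, 4 of the 17 passed within low RFI, where 15.1% of all kept probes did, and the two-way analysis of variance of the study's methods also called 0. The difference between the lines was itself tested as the interaction: it was 0.197 (SE 0.117, unadjusted p = 0.0976) and 0.205 (SE 0.112, unadjusted p = 0.0741), with an adjusted p of 1 at both probes, so that a different response of the lines was not shown. No interaction was called at any of the 17 probes by limma or by the analysis of variance, and 0% of all kept probes were called. At a raw p under 0.05 there were 0 of the 17, against 1.04% of all kept probes.

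PPARGC1A was read by 3 probes of low signal. At A_72_P297579 the signal lay between 3.41 and 110 brightness units, and the probe was well above background on 31 of 48 arrays, 9 in each HF group, 7 in LF low RFI and 6 in LF high RFI pigs. HF low RFI pigs ranged from -5.07 to -1.86 (median -3.50) and HF high RFI pigs from -4.66 to -3.19 (median -3.97). LF low RFI pigs ranged from -6.29 to -2.83 (median -4.15) and LF high RFI pigs from -6.46 to -3.64 (median -4.51). HF pigs lay higher with overlap, 20 of 24 above the LF mean and 3 of 24 LF pigs above the HF mean. The probe met the filter of 9 arrays in the HF groups only, and in LF pigs 11 of 24 values were not well above background, so that the size of the difference is uncertain and its test is no support for a change of the gene. The fit gave 0.656 (SE 0.204, adjusted p = 0.0288), and 0.648 without a filter on dim probes (adjusted p = 0.0407). On 2 arrays the deposited value was a substitute that the scanner software had put in.

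The value also depended on how the background was treated. With a normexp background correction and an offset of 50 the difference was 0.11 (adjusted p = 0.267). The median signal without background subtraction gave 0.236 (adjusted p = 0.0528), which was still called. With array position as a block the difference was 0.55 (adjusted p = 0.133). Probe O9324, well above background on all 48 arrays, ranged from -2.90 to -0.89 in HF (median -1.65) and from -3.32 to -1.05 in LF pigs (median -2.05). Its difference by diet was 0.423 (SE 0.158, adjusted p = 0.074), and it missed the cut-off on the raw p alone (0.0103). It was called under 4 of 14 alternative settings, and its difference ranged from 0.24 to 0.46 over the 14. Both probes varied together (r = 0.817, rho = 0.804, r = 0.771 without the 2 farthest arrays), although they share no more than 9 bases in a row.

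The remaining PPARGC1A probe, A_72_P077836, the brightest of the 3, differed by 0.104 by diet (SE 0.098, adjusted p = 0.546, 95% interval -0.09 to 0.30). HF pigs ranged from -1.43 to -0.17 (median -0.78) and LF pigs from -1.88 to -0.45 (median -0.84). A further spot with the same 60 bases, named by a number only, gave 0.158 (SE 0.105, adjusted p = 0.357). It followed the other PPARGC1A probes only in part (r = 0.46 with A_72_P297579 and 0.449 with O9324).

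**Figure D2:**
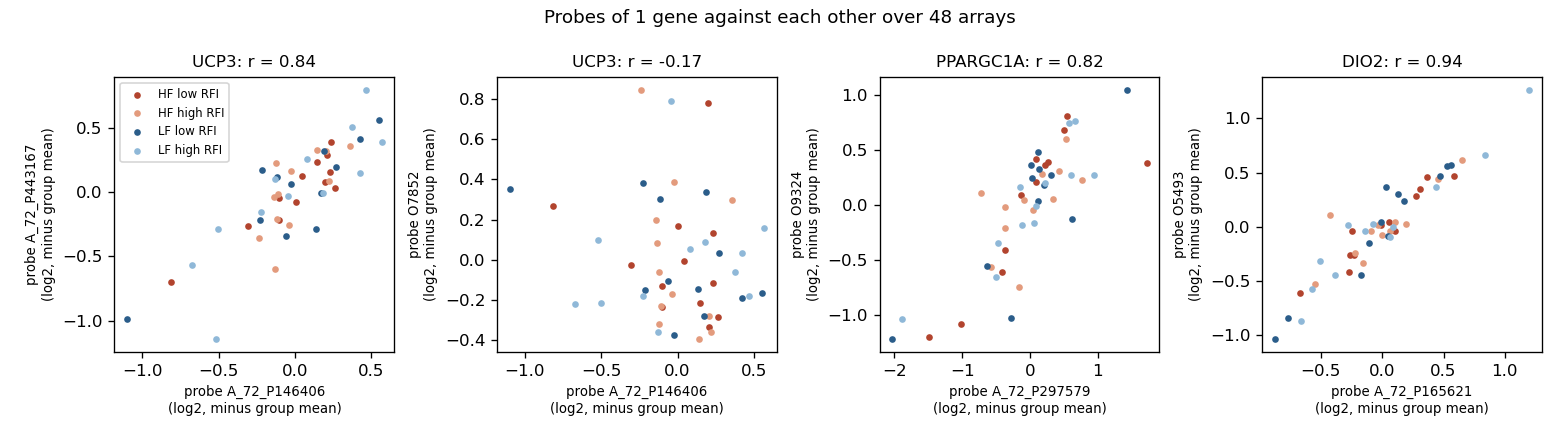
Probes of the same gene against each other over 48 arrays, each value (log2) minus the mean of its group; points are pigs in the colours of the 4 groups. The bright UCP3 probes (r = 0.84), the PPARGC1A probes A_72_P297579 and O9324 (r = 0.82) and the identical DIO2 probes (r = 0.94) follow each other, and UCP3 O7852 does not follow A_72_P146406 (r = -0.17).

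Downstream of PPARGC1A, neither TFAM nor ESRRA was called by diet. The 4 TFAM probes differed by -0.067, -0.130, -0.058 and -0.086 between diets (SE 0.05, 0.073, 0.05 and 0.049), with adjusted p-values from 0.262 to 0.504. At the brightest, A_72_P149791, HF pigs ranged from 1.97 to 2.75 (median 2.59) and LF pigs from 2.26 to 2.97 (median 2.64). All 4 differences were below 0, and HF pigs had the lower mean on 5 of 6 slides at each probe. The interval at A_72_P149791 was -0.17 to 0.03. Slides accounted for 42.3% of the variance of A_72_P305714, whose level differed by -0.25 between scan dates.

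ESRRA, an orphan nuclear receptor that PPARGC1A coactivates on genes of oxidative metabolism, was read by O14528 alone. HF pigs ranged from 4.46 to 5.24 (median 4.88) and LF pigs from 4.45 to 5.45 (median 4.91), a log2 difference of -0.116 (SE 0.072, adjusted p = 0.315). By line it was 0.122 higher in low-RFI pigs (SE 0.072, adjusted p = 0.612).

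DIO2 had the lowest p-values by line among the 17 probes, without passing the cut-offs. At O5493, HF low RFI pigs ranged from -1.98 to -0.90 (median -1.38) and LF low RFI pigs from -2.66 to -1.05 (median -1.48). HF high RFI pigs ranged from -1.66 to -0.53 (median -1.15) and LF high RFI pigs from -1.99 to 0.14 (median -1.15). Values of low-RFI pigs reached lower, with overlap: 20 of 24 high-RFI pigs lay above the low-RFI mean and 6 of 24 low-RFI pigs above the high-RFI mean. The log2 difference, low minus high RFI, was -0.363 (SE 0.128, unadjusted p = 0.00649, adjusted p = 0.195). The second spot with the same bases, A_72_P165621, gave -0.344 (SE 0.124, unadjusted p = 0.00773, adjusted p = 0.213), and because it repeats the measurement on the same RNA it adds no further pigs. At O5493 the line difference was -0.231 within HF and -0.495 within LF (adjusted p = 1 and 0.516), and the interaction of 0.264 (SE 0.255) had an adjusted p of 1.

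The DIO2 difference was -0.367 and -0.36 within the first and second scan dates at O5493, and low-RFI pigs had the lower mean on 6 of 6 slides there and on 5 of 6 at A_72_P165621. The adjusted p at O5493 ranged from 0.108 to 0.276 over the 14 alternative settings, and at A_72_P165621 from 0.114 to 0.352. By diet, DIO2 differed by 0.119 and 0.162 at the 2 spots (SE 0.128 and 0.124, adjusted p = 0.602 and 0.437). The SD of the difference between the 2 spots over the 48 arrays was 0.15, against an SD of 0.485 of O5493 among all pigs. Within groups DIO2 went with the summed muscle level at r = 0.351 (rho = 0.326) for O5493 and r = 0.451 (rho = 0.434) for A_72_P165621, as a description, and the part of tissue makeup was not tested.

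**Figure D3:**
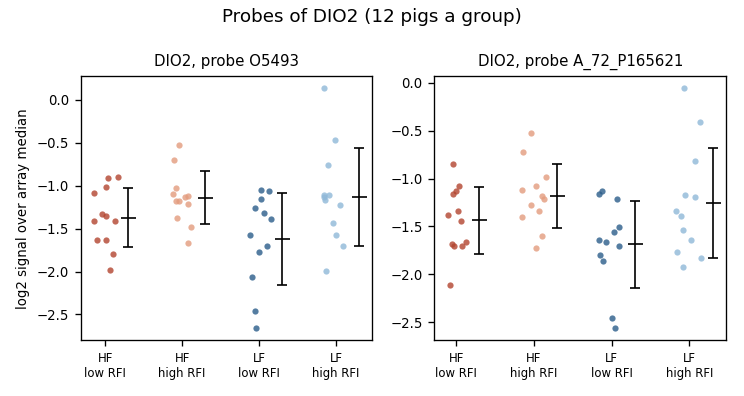
Level of the 2 DIO2 spots, which hold the same 60 bases (vertical axes, log2 signal over the array median), in the 4 groups of 12 pigs; points are pigs, and bars give the mean and SD of a group. Low-RFI pigs lie lower on average in both diets, by a log2 difference of -0.231 in HF and -0.495 in LF at O5493 and of -0.256 and -0.433 at A_72_P165621, none called.

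Over the 17 probes, 0 were called by line with limma, against 1.37% of all kept probes, and 0 with the analysis of variance. Without adjustment, 2 had a p under 0.05, both of DIO2, against 10.4% of all kept probes. Within the HF diet 0 of 17 were called by line (0.0113% of all kept probes) and within the LF diet 0 of 17 (0.0338%), with 0 and 2 probes at an unadjusted p under 0.05 (5.02% and 6.36% of all kept probes) and 0 in the analysis of variance. UCP3 differed by 0.010 and 0.059 between lines at its bright probes (SE 0.097 and 0.109), SLC25A4 by 0.063 and 0.038 (SE 0.058 and 0.056) and the PPARGC1A probes by 0.341, 0.125 and 0.165 (SE 0.204, 0.158 and 0.098).

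**Figure D4:**
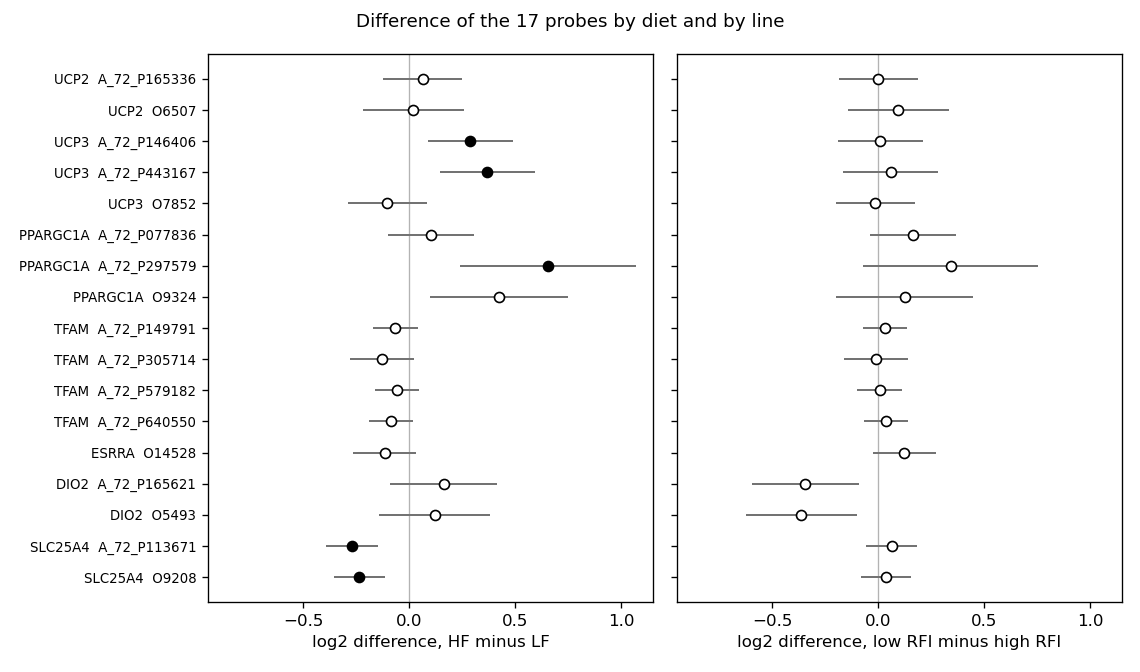
Log2 difference of the 17 probes (left HF minus LF, right low minus high RFI, each with its 95% interval from limma); filled points passed the cut-offs. By diet 5 probes are filled, those of UCP3 and the dim PPARGC1A probe above 0 and those of SLC25A4 below 0, and by line none.

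How the members varied with each other from pig to pig was read from the brightest probe of each of the 7 genes, with group means taken out. This gave 21 pairs, tested by permuting arrays within groups 100000 times, and p-values were adjusted over the 21. ESRRA and SLC25A4 varied together (r = 0.579, permutation p = 2e-05, adjusted p = 0.00042, and rho = 0.533, permutation p = 0.00011, adjusted p = 0.00231). DIO2 varied against SLC25A4 (r = -0.578, permutation p = 5e-05, adjusted p = 0.000525, and rho = -0.464, permutation p = 0.00117, adjusted p = 0.0123). Without the 2 farthest arrays r was 0.495 and -0.479, and with slide means also taken out 0.598 and -0.536. With the other SLC25A4 probe, O9208, r was 0.407 and -0.506. ESRRA also went with the summed adipocyte level (r = 0.491, rho = 0.514) and against the muscle and endothelial levels (r = -0.319 and -0.376, rho = -0.221 and -0.351). SLC25A4 shared the adipocyte and muscle signs as given above, and the endothelial sign only weakly (r = -0.077 at A_72_P113671 and -0.026 at O9208). The part of tissue makeup in these pairs of genes was not tested.

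In 3 further pairs r passed an adjusted p of 0.05 and rho did not. They were UCP2 with PPARGC1A (r = -0.411, permutation p = 0.00458, adjusted p = 0.024, and rho = -0.338, permutation p = 0.023, adjusted p = 0.118), TFAM with DIO2 (r = -0.439, permutation p = 0.00257, adjusted p = 0.018, and rho = -0.325, permutation p = 0.0282, adjusted p = 0.118) and TFAM with SLC25A4 (r = 0.377, permutation p = 0.00809, adjusted p = 0.034, and rho = 0.286, permutation p = 0.0545, adjusted p = 0.191). Without the 2 farthest arrays r was -0.36, -0.28 and 0.285. These 3 also depended on the probe: UCP2 A_72_P165336 went with PPARGC1A A_72_P297579 and O9324 at r = -0.086 and -0.036, and TFAM A_72_P579182 with DIO2 O5493 at -0.097 and with the SLC25A4 probes at -0.001 and 0.008. Other probes kept more of the link. UCP2 O6507 went with PPARGC1A A_72_P077836 at r = -0.443. TFAM A_72_P305714 and A_72_P640550 went with DIO2 O5493 at -0.366 and -0.333. With SLC25A4 A_72_P113671 they gave 0.313 and 0.253, and with SLC25A4 O9208 0.035 and 0.218. The other 16 pairs did not pass.

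Among 11095 other genes, each by its brightest probe, the 3 whose values followed each member most closely over the 48 arrays (group means taken out) were listed as a description. ESRRA was followed by FITM2, SNX3 and ZFYVE27 (r = 0.833, 0.833 and 0.824), of which FITM2 is known for its part in forming lipid droplets. TFAM was followed by SEH1L, MRPS10 and TRAPPC6B (r = 0.842, 0.835 and 0.803), of which MRPS10 is a protein of the mitochondrial ribosome. SLC25A4 was followed by ASCC1, FDFT1 and EIF4A2 (0.734, 0.709 and 0.705) and PPARGC1A at A_72_P077836 by CYP4B1, UPF3B and CREB3 (0.704, 0.619 and 0.604). UCP3 was followed by TEX264, DCAF8 and MTMR4 (0.65, 0.641 and 0.637), DIO2 by C20ORF94, TRIP10 and ADAMTS2 (0.674, 0.664 and 0.661) and UCP2 by HNRNPH3, GIMAP4 and LRMP (0.62, 0.567 and 0.561). The likeness held at 0.47 or more with slide means taken out. Of these 21 genes CREB3, MRPS10, SNX3 and C20ORF94 were called by diet (adjusted p = 0.0464, 0.0186, 0.0331 and 0.0594). Of all 11096 genes, each read by its brightest probe, 12.7% were called by diet.

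Around the members, 74 of 101 further listed genes of the pathway had a kept probe and were read by the brightest one. By diet 9 of the 74 were called, 2 higher and 7 lower in HF pigs, against 12.7% of all 11096 genes read the same way, and over the alternative settings the count ranged from 6 to 15. Of all kept probes 2489 were called higher and 3301 lower. By line 2 of the 74 were called, against 1.32%, with a range of 0 to 5. Each of the 9 kept its sign within both scan dates. Counts of genes below are of brightest probes, and calls at other probes are given for the genes named.

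Of 19 regulators of mitochondrial biogenesis, 0 were higher and 1 was lower under HF: PRKAA1, the catalytic alpha 1 subunit of AMP-activated kinase (-0.16, SE 0.055, adjusted p = 0.0522), a call made under 7 of 14 alternative settings. SIRT1, a deacetylase that acts on PPARGC1A, was not called at its brightest probe (0.133) and was called higher at its other one (0.264, adjusted p = 0.00764). The median difference was -0.048, against -0.039 over all genes. POLG, the polymerase of mitochondrial DNA, PRKAB1 and TFB1M differed by -0.131, -0.074 and -0.105 and were not called. TFB1M, a methyltransferase of mitochondrial ribosomal RNA, was higher in low-RFI pigs (0.282, SE 0.066, adjusted p = 0.0203), with 2 of its 3 probes called. With array position as a block this call was lost (0.268, adjusted p = 0.0883). That line difference was 0.419 within the first scan date and 0.145 within the second, and ESRRG, a relative of ESRRA, differed by 0.26 and was not called.

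Of 12 mitochondrial carriers and channels, 1 was higher and 2 were lower under HF. SLC25A27 (UCP4), a further relative of the uncoupling proteins, was higher in HF pigs (0.435, SE 0.138, adjusted p = 0.0319) and lower in low-RFI pigs (-0.511, SE 0.138, adjusted p = 0.0531), the latter call being lost with array position as a block (-0.493, adjusted p = 0.138). Its group means were 1.72 in HF low RFI, 2.06 in HF high RFI, 1.12 in LF low RFI and 1.79 in LF high RFI pigs, and its other kept probe gave 0.224 and -0.211 and was not called. The channels of the outer membrane VDAC1 and VDAC3 were lower under HF (-0.325 and -0.175, SE 0.086 and 0.047, adjusted p = 0.0101 and 0.01), VDAC1 at all 4 of its probes and VDAC3 at 2 of 7. VDAC2 differed by -0.176 at its brightest probe, which was not called, and 2 of its 8 probes were called, with all 8 below 0. The ADP/ATP carriers SLC25A5 (-0.073, adjusted p = 0.528) and SLC25A6 (0.004, adjusted p = 0.976) were not called by diet. The acylcarnitine carrier SLC25A20 differed by 0.247 between lines (adjusted p = 0.0866), and the median of the list by diet was -0.061.

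Of 12 brown and beige adipocyte genes, 1 was higher and 1 was lower under HF. CIDEA, a lipid droplet protein abundant in brown fat, was lower (-0.356, SE 0.1, adjusted p = 0.0149). PPARA, a nuclear receptor for fatty acids, was higher at its brightest probe (0.956, adjusted p = 0.00332), but lower at a second one (-0.319, adjusted p = 0.0626), and its remaining probe gave 0.207 without a call, so that the gene has no single direction here. COX7A1 and CITED1 differed by -0.207 and -0.095 and were not called. GK, glycerol kinase, differed by 0.06 at its brightest probe and was called higher at its other one (0.659, adjusted p = 0.0059), and by line it differed by 0.269 without a call. The median by diet was 0.018.

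Of 10 genes of heat cycles that do not need UCP1, CKB, the creatine kinase of the creatine cycle, was lower under HF (-0.501, SE 0.141, adjusted p = 0.015) and none was higher. ATP2A2, the calcium pump of the calcium cycle, GPD2 and GATM differed by -0.165, -0.191 and 0.248 and were not called, and the median was -0.016. Of 8 genes of thyroid hormone activation and response, 0 were called by diet with limma (median 0.041), and 1 had an unadjusted p under 0.05. THRB and THRA, the receptors of T3, differed by 0.19 and 0.118 (unadjusted p = 0.031 and 0.0524), and DIO1 and SECISBP2 differed by -0.557 and -0.07. By line, KLF9, a target of T3, differed by 0.293 at its brightest probe (adjusted p = 0.119), with 1 of its 11 probes called (0.354, adjusted p = 0.06) and 7 of the 11 below 0, so that it has no single direction here. DIO1, read by 1 probe, differed by 0.957 by line and was not called (adjusted p = 0.197).

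Of 13 genes of mitochondrial fusion, fission and mitophagy, PINK1, the kinase that marks damaged mitochondria, and DNM1L, which cuts mitochondria, were lower under HF (-0.281 and -0.27, SE 0.076 and 0.074, adjusted p = 0.0112 and 0.0128) and none was higher. The other probe of PINK1 gave 0.019 and was not called, and both probes of DNM1L were called. BNIP3L, a receptor for mitophagy, was called lower at 3 of 6 probes (-0.161 to -0.106 over the 6), and MIEF1, a fission factor, at 2 of 4 (-0.311 and -0.227), while their brightest probes (-0.111 and 0.238) were not called. The prohibitins PHB2 and PHB differed by -0.112 and -0.162 (adjusted p = 0.0804 and 0.123), YME1L1 differed by -0.113 between lines and was not called, and the median by diet was -0.099.

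**Figure D5:**
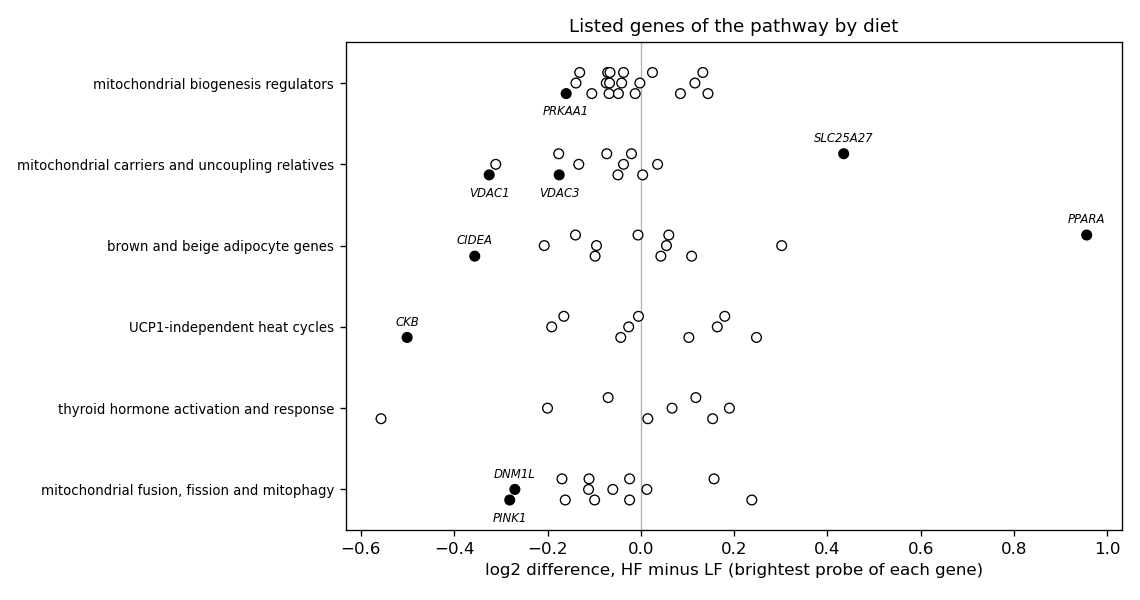
Log2 difference HF minus LF (horizontal axis) of the listed genes, each by its brightest probe, in 6 lists; filled points passed the cut-offs and are named. Of 74 genes 9 are filled, 7 of them to the left of 0.

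Markers of cell types were read in the same way. Of 12 adipocyte markers 2 were lower under HF, LEP (-0.666, adjusted p = 0.00494) and CEBPA (-0.142, adjusted p = 0.0581), at all 3 and all 4 of their probes (-0.731 to -0.666 and -0.306 to -0.142), and FABP4 and CFD differed by -0.114 and 0.222 and were not called, while 2 probes of ADIPOQ other than its brightest were called higher (0.193 and 0.237), as they were in low-RFI pigs by line (0.213 and 0.236). Of the muscle markers TNNT1, MYOG and MYH1 differed by -0.345, 0.181 and -0.218, and by line NEB and ENO3 by 0.57 and 0.425, none called. Among the 70 probes of the muscle list 4 were called lower by diet and 0 higher, where 13.1% of all kept probes were called. The 4 were 2 of PYGM, 1 of CKM and 1 of MYH7. Of 13 macrophage, 8 endothelial and 8 blood cell markers 0 were called by diet or by line with limma (median by diet 0.036, 0.028 and -0.036). At an unadjusted p under 0.05 there were 0 by diet, and by line 2 macrophage, 1 endothelial and 0 blood cell markers. Macrophage markers had a median of -0.164 by line with 11 of 13 below 0, the lowest unadjusted p being that of VSIG4 (0.0321), a receptor of resident macrophages.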

How the data were processed

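RNA of 48 SCAT samples, 1 per pig, was labelled with Cy3 by the authors, who used a custom pig array with 60305 non-control probes. The deposited scanner files of Agilent Feature Extraction 10.7.3.1 hold spot intensity on a linear scale, per the file headers, and the processed signal is background-subtracted. A second deposited file gives log2 values of 38987 probes and equals the log2 median intensity minus the array median (largest difference 4.87e-09) and served as an alternative. R 2.10.0 is named in the submitters' processing notes.

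Here 227 spots flagged as outliers were set to missing, none of them at the 17 probes described, and 1319 control spots were left out. No spot was saturated. Probes well above background on at least 9 of 12 arrays of a group were kept (44356). The log2 processed signal was centred on each array's median and fitted with limma 3.58.1 (R 4.3.3, lmFit and eBayes with an intensity trend) over all 48 arrays, with means of the 4 groups and contrasts for diet, line, their interaction and each factor within the other. The fit was tested on simulated data. Intervals are 95% intervals of limma. For arrays, their number limits the precision.

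Probes were named from the array's gene names and from the accessions in the RefSeq table of assembly Sscrofa11.1 (26795 probes, 12900 symbols). PPARGC1A A_72_P077836 and A_72_P297579 carry an older name of the gene in the files. The array lists all probes as unmapped, so no genome position is given. Start positions are those the files list for the source transcript, and sequences are the array's own.

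The genes and the gene lists were chosen with earlier results of these data known. The rule for named genes took every kept probe of the members, the up to 4 genes of each list with the smallest p by diet and up to 2 by line, and the 3 most alike genes per member; marker genes are given mostly as counts, and a few further listed genes (SLC25A5, SLC25A6, SIRT1, BNIP3L, MIEF1, ADIPOQ, CKM, MYH7) were named after their values were seen. Marker lists were summed as the log2 of the summed signal of each gene's brightest probe. Alternatives changed the background correction, scaling, filter, flags, blocks for slide, scan date, array position and replicate number, array weights, and the test (the two-way analysis of variance of the study's methods, with no moderated spread).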

Additional observations from a re-analysis of the deposited data

How the results depend on the processing

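The differences of the 17 probes by diet and by line, and the counts of called probes and listed genes, were recomputed under up to 14 alternatives. For the listed genes the mean of all probes of a gene was a further one. The correlations between members and the marker sums were not part of this. Of 470 values of the 17 probes by diet and by line, 450 kept their direction and their side of the cut-offs, 4 gained a call, 4 lost one and 12 uncalled values near 0 turned sign; no called value turned. With array position as a block, 3 of the 17 probes were called by diet in place of 5, 1 in place of 2 within high RFI (O9208 was lost), and 0 of the 74 listed genes in place of 2 by line; positions were spread unevenly over the groups, and the cause was not tested. With array weights 15 listed genes were called by diet in place of 9 and 5 by line, and with the mean of all probes of a gene 6 by diet and 1 by line. The counts of called probes by line, for the interaction, by diet within low RFI and by line within either diet were 0 under every alternative. Same-numbered arrays lay on the same slide and their deviations from the group means correlated between -0.193 and 0.449, so that the numbers were not taken to pair the pigs. With the replicate block 5 of the 17 probes were called by diet and 0 by line, and 10 and 2 listed genes. The values by line that turned sign were those of UCP2 A_72_P165336 (-0.00027 with normexp, -0.0098 with scaling to the 75th percentile, -0.00755 with quantile normalization, -0.0054 without a filter and -0.0034 with probes well above background on all arrays), UCP3 A_72_P146406 (-0.00036 at the 75th percentile and -0.013 with quantile normalization), TFAM A_72_P305714 (0.0061 with the median signal and 0.0072 in the authors' table) and TFAM A_72_P579182 (-0.0045 at the 75th percentile, -4.571e-05 without a filter and -0.0070 with array weights). Scaling to the 75th percentile moved the median of all kept probes by diet from -0.020 to 0.021. PPARGC1A A_72_P297579 gave no value in the authors' table or among probes well above background on all arrays, and A_72_P077836 none in the authors' table. Signal over background limits what the dim PPARGC1A probes and UCP3 O7852 can show.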
